A study of Drosophila melanogaster with 6 samples.

Results

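Odorant-binding proteins are a family of small secreted proteins of insects, and 48 genes of the family were followed in whole adult females of Drosophila melanogaster on a high-fat diet (HFD) and on a regular diet (RD). A gene was a member where a probe set carried 1 gene symbol that began with Obp and a number, or was lush, and each gene was read from its brightest probe set over the 6 arrays. The array annotation gave 48 such genes with 51 probe sets, of 52 genes of the family in the RefSeq Release 6 gene table, and Obp50b, Obp50c, Obp57d and Obp83a have no probe set of their own here. The HFD flies ate food with coconut oil at 20% weight per volume and the RD flies ate Jazz-Mix food, 3 arrays each. All flies were w1118 females in normal oxygen, placed on the diet at 3 to 5 days of age for 1 week and frozen at 10 to 12 days, and whole bodies were used. Whether the 3 samples per diet came from different vials is not stated, and the p-values therefore cover the spread of these 6 samples alone, which may be technical.

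In the fly antenna and in taste hairs, support cells secrete odorant-binding proteins into the fluid around the sensory neurons, where they bind odours, pheromones and tastants. Receptors of the neurons then read these molecules. Many members of the family are also made outside the sense organs, for example in fat body, glia or the male reproductive glands. Most members lie in tandem clusters, and the number in a name is the polytene region of the gene.

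Of the 48 members, 21 had a mean signal above 30 over the 6 arrays, and these were also the 21 that passed the filter on dim probe sets at a signal of 27.9. All 21 had both diet means above that level, the lowest at 34.8. Just inside the limit of 30 lay Obp99b with a mean of 45.2 and lush with 46.3, and just outside lay Obp8a with 27.7 and Obp73a with 23.4. Signals are linear MAS5 values of the authors, each probe set on its own scale, so levels are compared between diets and not between genes. Differences are HFD minus RD in log2 of signal plus 1, which understates the change of dim genes, and carry the standard error (SE) of a limma fit across all probe sets. The words "rose" and "fell" stand only where the Benjamini-Hochberg adjusted p was under 0.05. In whole flies, fewer cells of a type and less RNA per cell cannot be told apart.

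Of the 21 members, 9 rose in HFD flies, 3 fell and 9 did not pass. Over all 11261 probe sets tested, 12.9% rose and 6.63% fell. A positive sign was seen in 16 of the 21, against 51.3% of all probe sets tested. The median log2 fold change was 0.47 over the 21 members and 0.0083 over all probe sets tested. All 3 HFD arrays lay above all 3 RD arrays for 10 members and below them for 4, and this held for 23.2% and 18.7% of all probe sets tested. Members that rose were Obp19a, Obp19d, Obp44a, Obp49a, Obp56d, Obp56g, Obp57a, Obp57b and Obp83b, and those that fell were Obp19c, Obp99a and Obp99c. The 3'/5' signal ratio of control transcripts, which rises when RNA or its labelled copy is shorter, had a higher mean in HFD flies. With that ratio in the model 3 members rose and none fell by the limma adjusted p, against 1.89% and 0.471% of all probe sets. At an unadjusted p under 0.05 in that fit, 11 members were higher and 3 lower, against 1894 of 11261 probe sets in either direction. Without HFD array 3, 5 members rose and 3 fell, against 9.56% and 5.25% of all probe sets.

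**Figure D1:**
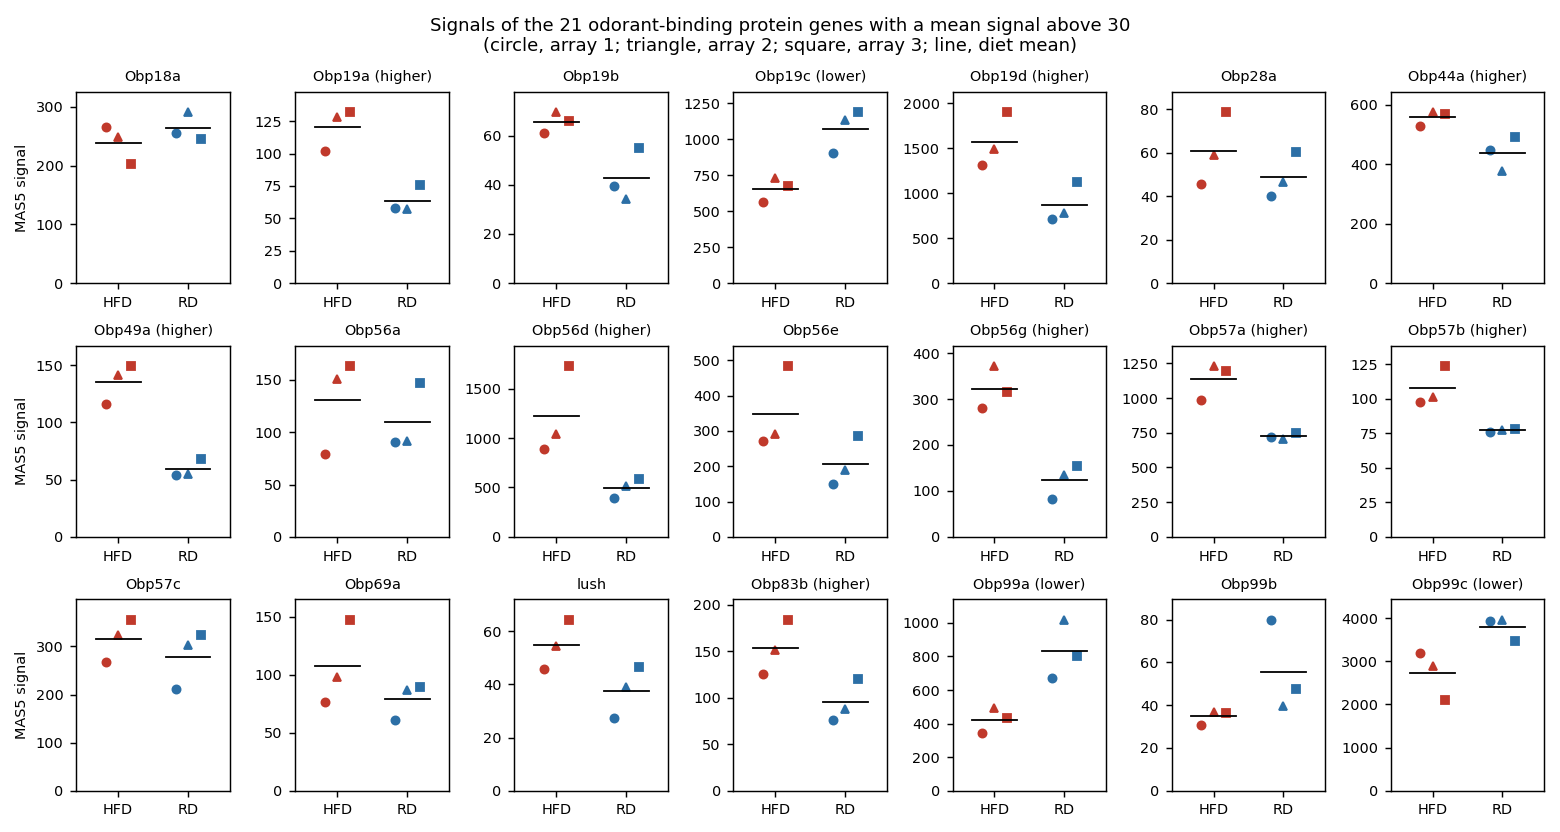
MAS5 signal (linear axis from 0) of the 21 members with a mean signal above 30, 1 panel a gene, with HFD left of RD, a symbol for each array and a line at the diet mean (n = 3). In Obp49a, Obp56d, Obp56g and Obp57a every HFD point lies above every RD point, and in Obp19c, Obp99a, Obp99b and Obp99c every HFD point lies below.

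The 56 cluster on chromosome arm 2R has 9 members on the array, of which 4 had signals above 30, 2 rose and none fell. Obp56g is known as a protein of the male seminal fluid, also found in sense organs. It had signals of 281, 372 and 315 on the HFD arrays, against 82.8, 134 and 155 on the RD arrays. The groups did not overlap, and the rise was 2.66-fold, at 1.41 ± 0.22 on the log2 scale (limma, adjusted p = 0.00569). Obp56d, expressed in antennae and taste organs, had signals of 888, 1044 and 1728 on the HFD arrays, against 389, 515 and 587 on the RD arrays. HFD array 3 was the highest of its group by far, yet all 3 HFD signals lay above the RD signals, and the rise was 2.38-fold (log2 1.25 ± 0.25, adjusted p = 0.0118).

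Obp56e, the next gene after Obp56d, had signals of 271, 293 and 484 on the HFD arrays, against 149, 188 and 286 on the RD arrays. RD array 3 overlapped the HFD arrays, and the difference did not pass (log2 0.75 ± 0.28, adjusted p = 0.0964). Obp56a had signals of 79.6, 151 and 163 on the HFD arrays and 90.2, 91.9 and 147 on the RD arrays, where the diets overlapped over most of their range (log2 0.22 ± 0.30, adjusted p = 0.614). The other members of this cluster, Obp56b, Obp56c, Obp56f, Obp56h and Obp56i, had mean signals under 30. In the reference table Obp56a to Obp56f follow each other with no other protein-coding gene between them, so that members that rose and dim members are direct neighbours.

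The 57 cluster, also on 2R, has 4 members named singly, and 2 of its 3 members above 30 rose. Obp57a had signals of 989, 1230.3 and 1193 on the HFD arrays, against 718, 706 and 749 on the RD arrays. The lowest HFD signal was well above the highest RD signal, and the rise was 1.56-fold (log2 0.65 ± 0.087, adjusted p = 0.00341). Its neighbour Obp57b had signals of 98.1, 102 and 124 on the HFD arrays, against 75.9, 77.2 and 78.5 on the RD arrays, with no overlap (1.38-fold, log2 0.47 ± 0.12, adjusted p = 0.0347). The call of Obp57b was lost when any 1 of the 6 arrays was left out, and its adjusted p ran from 0.00166 to 0.266 over 16 other fits. Obp57c, next in the row, had signals of 268, 323 and 355 on the HFD arrays and 211, 303 and 323 on the RD arrays, and did not pass (log2 0.19 ± 0.17, adjusted p = 0.459). Its sign turned under median centring, to -0.018. Obp57d and Obp57e are known from taste hairs of the leg and from the behaviour of flies towards medium-chain fatty acids in food. Obp57e was dim on all arrays, at 11.9, 14.3 and 13.0 on the HFD arrays and 12.5, 14.1 and 12.9 on the RD arrays. Obp57d shares its probe sets with Cpr57A in the annotation and was not assigned a value here. The brighter shared probe set rose (log2 0.81 ± 0.15, adjusted p = 0.0107) and the other was dim. Neither can be credited to a single gene.

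The 19 cluster on the X chromosome holds 4 genes in a row with no protein-coding gene between them, and all 4 had signals above 30. They went in both directions: Obp19a and Obp19d rose and Obp19c, which lies between them, fell. Obp19a had signals of 102, 128 and 132 on the HFD arrays, against 57.6, 56.9 and 75.8 on the RD arrays. The diets did not overlap and the rise was 1.89-fold (log2 0.92 ± 0.16, adjusted p = 0.00804). A second, dimmer probe set of Obp19a overlapped between the diets and did not pass (log2 0.43 ± 0.26, adjusted p = 0.278).

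Obp19d, an antennal and taste organ protein first described as pheromone-binding protein-related protein 2, had signals of 1311, 1489 and 1901 on the HFD arrays, against 712, 783 and 1121 on the RD arrays. It rose 1.81-fold (log2 0.86 ± 0.19, adjusted p = 0.0173), and without HFD array 3 it did not pass (log2 0.71, adjusted p = 0.0521). The name of its probe set ends in s_at, the array maker's mark for probes that may bind more than 1 transcript. Obp19b had signals of 60.9, 69.5 and 66.0 on the HFD arrays, against 39.4, 34.3 and 55.1 on the RD arrays. These did not overlap, but the difference did not pass (log2 0.62 ± 0.19, adjusted p = 0.0506). Obp19b lay at the threshold and passed in 6 of 16 other fits, among them that without RD array 3.

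Obp19c had signals of 565, 732 and 673 on the HFD arrays, against 900.3, 1131 and 1186 on the RD arrays. It was lower on every HFD array, 1.63-fold by the fit (log2 -0.71 ± 0.13, adjusted p = 0.00884). Its dimmer probe set, at 22.6, 24.5 and 31.1 on the HFD arrays and 36.0, 38.3 and 38.3 on the RD arrays, had the same sign with no overlap and did not pass (log2 -0.52 ± 0.16, adjusted p = 0.0550).

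The 99 cluster on arm 3R was the other place where members fell: 2 of its 3 members above 30 fell, and the third had the same sign. Obp99a had signals of 344, 491 and 431 on the HFD arrays, against 673, 1018 and 803 on the RD arrays. No HFD signal reached the RD range, and the fall was 1.96-fold (log2 -0.97 ± 0.17, adjusted p = 0.00813). Obp99c had signals of 3187, 2884 and 2091 on the HFD arrays, against 3923, 3958 and 3469 on the RD arrays. The diets did not overlap, HFD array 3 was the lowest, and the fall was 1.41-fold (log2 -0.50 ± 0.14, adjusted p = 0.0456). The call of Obp99c was lost without HFD array 2 or any 1 of the RD arrays, with adjusted p from 0.00392 to 0.316 over 17 other fits, and that of Obp99a only with the control ratio.

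Obp99b, made in the fat body of the head under control of the sex-determination pathway and more abundant in males, had signals of 31.0, 36.8 and 36.5 on the HFD arrays, against 79.9, 39.5 and 47.5 on the RD arrays. RD array 1 was well above the others, and the difference did not pass (log2 -0.60 ± 0.25, adjusted p = 0.127). Obp99d was dim on all arrays. Unlike the 19 cluster, the members of the 99 cluster are not adjacent: 5 protein-coding genes lie between Obp99a and Obp99c, and 1 each between Obp99c, Obp99d and Obp99b.

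Fat body genes were lower in HFD flies beside these falls. Of 8 fat body marker genes tested, 6 fell and none rose, with a median log2 fold change of -0.46. The summed signal of the 10 such genes on the array was 36564 to 40847 on the HFD arrays and 48913 to 55090 on the RD arrays. The markers Lsp2, Gnmt and fit fell most, at -5.90 ± 0.35, -2.96 ± 0.20 and -2.19 ± 0.21 on the log2 scale (adjusted p = 5.72e-04, 9.36e-04 and 0.0016). The next, apolpp, fell less, at -0.52 ± 0.089 (adjusted p = 0.00731). Yolk protein genes Yp1, Yp2 and Yp3 were put on this list and on the female list below, so the summed signals of both share genes. Such sums weigh bright genes most, and single signals on the fat body list ran from 6.17 to 13448. The part of fat body genes in the falls of Obp99a, Obp99c and Obp19c was not tested.

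**Figure D2:**
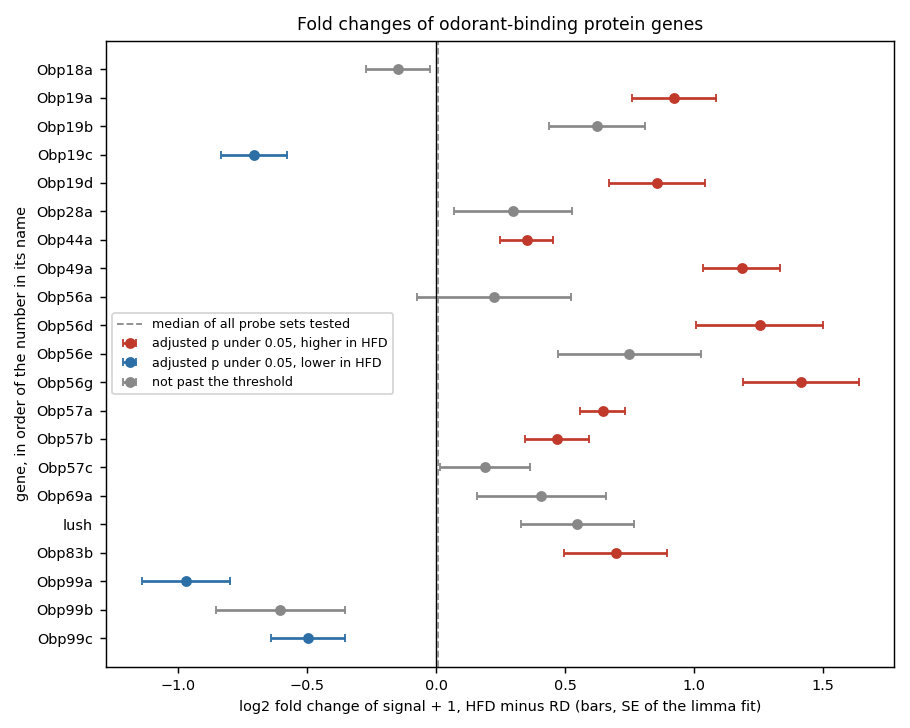
Log2 fold change of signal + 1, HFD minus RD, of the 21 members (points, with bars of 1 SE of the limma fit), in order of the number in the gene name, coloured by the call. The dashed line is the median of all 11261 probe sets tested; 16 members lie right of 0, and Obp18a, Obp19c and the 3 genes of the 99 cluster lie left of it.

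Members that stand alone at their band included genes with known roles in taste and smell. Obp49a, made by support cells of taste hairs and known for the suppression of sweet taste by bitter compounds, had signals of 116, 142 and 149 on the HFD arrays, against 54.2, 54.9 and 68.4 on the RD arrays. Every HFD signal was well above every RD signal, and the rise was 2.27-fold (log2 1.18 ± 0.15, adjusted p = 0.00295), the smallest adjusted p of the 21. Obp44a, known from glia, had signals of 528, 575 and 569 on the HFD arrays, against 448, 377 and 492 on the RD arrays, a rise of 1.28-fold without overlap (log2 0.35 ± 0.10, adjusted p = 0.0476). This small rise was lost on leaving out any 1 array other than RD array 3, and the adjusted p ran from 0.00778 to 0.461 over 17 other fits.

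Obp83b, also called OS-E, is a protein of the pheromone-sensing trichoid hairs of the antenna. It had signals of 126, 151 and 184 on the HFD arrays, against 76.6, 87.8 and 121 on the RD arrays. The lowest HFD signal was just above the highest RD signal, and the rise was 1.62-fold (log2 0.70 ± 0.20, adjusted p = 0.0445). It too was lost without any 1 array other than RD array 3 (adjusted p from 0.00695 to 0.180 over 16 other fits). Obp83b belongs to the 83 cluster, where its direct neighbour Obp83a has no probe set of its own here. The dim members Obp83cd, Obp83ef and Obp83g lie 6 protein-coding genes further along.

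lush, the protein of trichoid hairs needed for the response to the male pheromone cis-vaccenyl acetate, had signals of 45.7, 54.5 and 64.3 on the HFD arrays, against 27.5, 39.0 and 46.7 on the RD arrays. HFD array 1 lay just under RD array 3, and the difference did not pass (log2 0.55 ± 0.22, adjusted p = 0.116). The antennal genes Obp28a and Obp69a also did not pass, at 0.30 ± 0.23 (adjusted p = 0.379) and 0.41 ± 0.25 (adjusted p = 0.276) on the log2 scale. Obp28a had signals of 45.5, 58.8 and 78.6 on the HFD arrays and 39.9, 46.6 and 60.1 on the RD arrays, and Obp69a had 76.9, 98.2 and 147 on the HFD arrays and 60.8, 86.7 and 89.5 on the RD arrays. In both genes the RD arrays overlapped the lower HFD arrays. Obp18a, on the X chromosome, had signals of 266, 248 and 203 on the HFD arrays and 255, 291 and 245 on the RD arrays, and did not pass (log2 -0.15 ± 0.12, adjusted p = 0.418).

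Many of the 21 members also varied alike between arrays of the same diet. In 14 of them array 1 was the lowest of both diets, against 21.7% of all probe sets tested, and in 12 array 3 was the highest of both, against 8.23%. Both held for 11 members, against 3.04% of all probe sets: Obp19d, Obp28a, Obp49a, Obp56a, Obp56d, Obp56e, Obp57b, Obp57c, Obp69a, lush and Obp83b. Of these 11, 5 rose, none fell and 6 did not pass. Over all probe sets tested, 12.9% rose and 6.63% fell, and the shares among probe sets with this array order were not computed. The full pattern was not seen in Obp18a, Obp19a, Obp19b, Obp19c, Obp44a, Obp56g, Obp57a, Obp99a, Obp99b and Obp99c. Among these, Obp19a, Obp44a, Obp56g and Obp57a rose, and Obp19c, Obp99a and Obp99c fell. Obp99c and Obp18a had array 3 as the lowest of both diets.

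Replicates of a diet have no order, and the part of this pattern in the differences between diets was not tested. The median deviation of the 21 members from their diet mean was -0.22, 0.063 and 0.15 on the log2 scale for HFD arrays 1, 2 and 3 and -0.24, -0.036 and 0.24 for RD arrays 1, 2 and 3. Over all probe sets tested it stayed between -0.042 and 0.048.

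**Figure D3:**
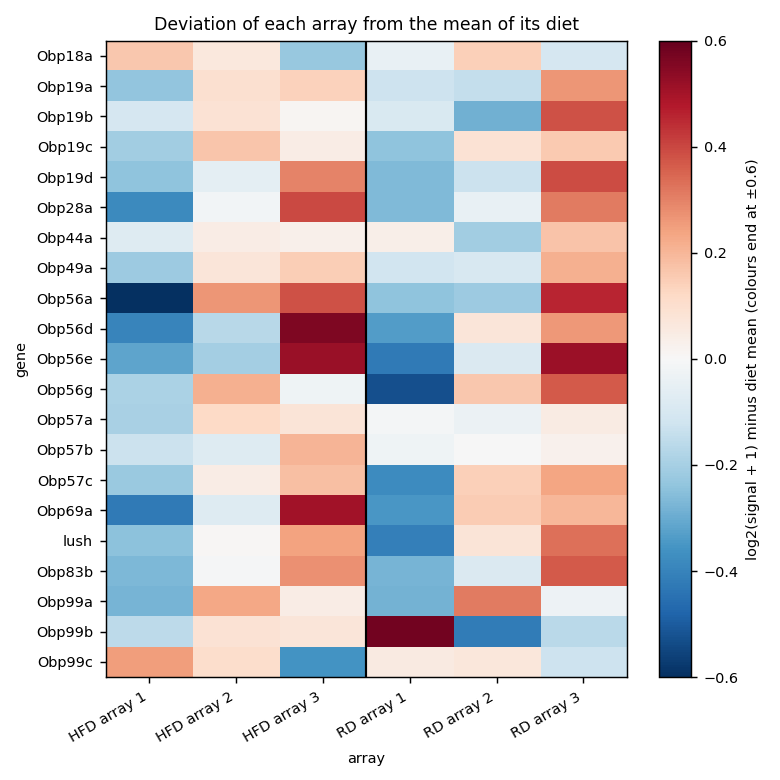
Deviation of log2(signal + 1) from the mean of the array's own diet, for the 21 members (down the page) on the 3 HFD and the 3 RD arrays (left and right of the line). Array 1 is blue (below its diet mean) and array 3 red (above it) in both diets for most members, while Obp18a and Obp99c show the reverse on HFD arrays 1 and 3.

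Other genes of smell and taste were mostly too dim to test. Of 113 odorant and taste receptor genes on the array, 10 were tested, of which Or71a fell (log2 -0.69 ± 0.19, adjusted p = 0.0357) and none rose. Orco, the coreceptor that odorant receptors need, was under the filter, with signals of 22.4, 18.4 and 20.4 on the HFD arrays and 20.2, 17.2 and 19.6 on the RD arrays. Of 53 ionotropic receptor genes, 8 were tested, of which Ir7c fell (log2 -0.84 ± 0.15, adjusted p = 0.00952) and none rose. The median log2 fold change was 0.16 and 0.0053 in these 2 groups, next to 0.47 in the odorant-binding proteins.

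Chemosensory proteins and other secreted or membrane proteins of the sense organs had signal for a larger share of genes, with 10 of 21 on the array tested. Of these, 4 rose and none fell, with a median of 0.38. The antennal proteins a10 and Os-C were both among those that rose. Os-C had signals of 199.6, 231 and 256 on the HFD arrays, against 112, 146 and 184 on the RD arrays (log2 0.65 ± 0.18, adjusted p = 0.0421), and a10 had 248, 324 and 328 on the HFD arrays, against 165, 157 and 219 on the RD arrays (log2 0.74 ± 0.16, adjusted p = 0.0173). In both genes array 3 was the highest of each diet. EbpIII and CG30172, of the chemosensory protein family, rose as well, at 0.31 ± 0.089 and 0.86 ± 0.13 (adjusted p = 0.0459 and 0.00484). The median deviation of the 10 genes from their diet mean was -0.17 and 0.14 on HFD arrays 1 and 3 and -0.12 and 0.083 on RD arrays 1 and 3. Of 12 regulators of sense organ development on the array, 6 were tested, with a median of 0.43. Among these 6, pdm3, onecut and salm rose, at 0.82 ± 0.23, 0.69 ± 0.18 and 0.56 ± 0.15 (adjusted p = 0.0399, 0.0323 and 0.0369), and none fell.

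Markers of tissues of the head and of muscle were higher in HFD flies beside the rises. All 12 neuron markers and all 9 photoreceptor and head markers tested rose, with medians of 0.92 and 1.08 on the log2 scale, for example para at 1.28 ± 0.15 and trpl at 1.10 ± 0.13 (adjusted p = 0.00228 and 0.00234). The summed signal of the neuron markers was 3920 to 4172 on the HFD arrays and 2178 to 2682 on the RD arrays, and that of the photoreceptor and head markers was 12519 to 13777 on the HFD arrays and 7401 to 8179.6 on the RD arrays. Of 7 glia markers tested, 5 rose, among them repo at 0.94 ± 0.15 (adjusted p = 0.00567), with a median of 0.43. The summed signal of the 8 glia markers on the array was 4507 to 4589 on the HFD arrays and 3331 to 3463 on the RD arrays. All 10 muscle markers rose, for example tn at 1.58 ± 0.16 (adjusted p = 0.00165), with a median of 1.04 and a summed signal of 12396 to 14971 on the HFD arrays and 6011 to 8024 on the RD arrays. No marker of these 4 lists was at 0 on any array. The median deviation from the diet mean on arrays 1, 2 and 3 was 0.058, -0.077 and 0.011 in HFD flies and 0.21, -0.21 and -0.091 in RD flies for neuron markers. For photoreceptor and head markers it was 0.027, -0.081 and 0.047 in HFD flies and 0.28, -0.14 and -0.065 in RD flies. For glia markers it was -0.044, 0.0026 and 0.050 in HFD flies and 0.14, -0.055 and -0.0037 in RD flies. For muscle markers it was 0.11, 0.060 and -0.18 in HFD flies and 0.19, -0.27 and 0.071 in RD flies. RD array 1 was above the diet mean for these 4 lists and below it, at -0.24, for the odorant-binding proteins. In HFD flies array 1 was lowest and array 3 highest for the odorant-binding proteins (-0.22 and 0.15) and the glia markers (-0.044 and 0.050). All probe sets tested had -0.042 and 0.048 on these 2 HFD arrays. The part of head tissue in the rises of odorant-binding proteins was not tested.

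Because Obp56g and some dim members are known from the male reproductive tract, genes of male glands and testis were read as well. The array names 31 such genes, and of the 11 with enough signal for the limma fit 0 passed after adjustment and 1 had an unadjusted p under 0.05. Their summed signal over the 31 genes was 661 to 818 on the HFD arrays and 768 to 786 on the RD arrays. Single signals ran from 0 to 135, and 4 of the 31 genes, Acp26Aa, Acp26Ab, Acp53Ea and Mst87F, were at 0 on at least 1 array and at most 6.92 on any. The male-gland genes nearest the threshold were Sems (log2 -0.51 ± 0.17, adjusted p = 0.0674) and lectin-46Ca (log2 -0.32 ± 0.17, adjusted p = 0.220), both with a negative sign. Over the 11 male-gland and testis genes tested, the median log2 fold change was 0.0043. The yolk protein gene Yp1, a marker of females, was bright on every array, with signals of 8366, 8654 and 7847 on the HFD arrays and 8797, 9337 and 8315 on the RD arrays. Of 15 yolk and eggshell or oocyte genes, 9 fell and none rose, with a median of -0.26, for example the chorion gene Cp18 at -1.35 ± 0.24 (adjusted p = 0.00857), and their summed signal was 90985 to 96503 on the HFD arrays and 120747 to 124912 on the RD arrays.

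The 27 members with a mean signal of 30 or less were not tested, and their signals ran from 0 to 34.4. In 22 of them all 6 signals were under 30. They are Obp8a, Obp22a, Obp46a, Obp47a, Obp47b, Obp50a, Obp50d, Obp50e, Obp51a, Obp56b, Obp56c, Obp56f, Obp56h, Obp56i, Obp57e, Obp58b, Obp58c, Obp58d, Obp59a, Obp73a, Obp83cd, Obp83ef, Obp83g, Obp84a, Obp85a, Obp93a and Obp99d. Obp22a, Obp51a, Obp56f and Obp56i, also known as seminal fluid proteins, belong to this group, as does Obp59a, known for humidity sensing. The HFD arrays lay all above the RD arrays in 2 of the 27, Obp56i and Obp58c, and all below in 1, Obp85a. Among all probe sets with a mean of 30 or less, 10.6% lay all above and 6.8% all below. Obp58c had signals of 29.6, 34.4 and 22.2 on the HFD arrays, against 16.5, 13.4 and 13.3 on the RD arrays, the only member of the 3 with signals near the limit.

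By chromosome arm, the 26 members on 2R had 9 tested, of which 6 rose and none fell. The 11 members on 3R had 4 tested, with 1 that rose and 2 that fell, and the 6 on X had 5 tested, with 2 that rose and 1 that fell. The 3 tested members on 2L and 3L did not pass. Over all probe sets tested, on any arm, 12.9% rose and 6.63% fell, and shares by arm were not computed.

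Some array-level measures differed between the diets without overlap and others overlapped. The median signal over all probe sets was 60.7 to 63.8 on the HFD arrays and 52.8 to 55.3 on the RD arrays. The mean signal of bioB, a spike-in control, was 552, 399 and 396 on the HFD arrays. On the RD arrays it was 276, 248 and 264 (exact permutation p = 0.1, two-sided). The 3'/5' ratio of the actin control was 9.29, 8.35 and 8.93 on the HFD arrays, against 7.85, 4.90 and 5.69 on the RD arrays (exact permutation p = 0.1, two-sided, the smallest that 3 against 3 arrays allow). The diets overlapped in the ratios of GAPDH, at 2.49, 2.25 and 2.51 on the HFD arrays and 2.40, 1.93 and 2.15 on the RD arrays, and of eIF-4a, at 10.9, 9.38 and 10.5 on the HFD arrays and 10.03, 5.90 and 7.40 on the RD arrays. They also overlapped in the mean log2 ratio over the 3 controls, at 2.66, 2.49 and 2.63 on the HFD arrays and 2.52, 1.93 and 2.17 on the RD arrays (exact permutation p = 0.2 for each of these 3 measures). With that mean as a covariate, Obp49a, Obp56g and Obp57a still rose, at 1.26, 1.94 and 0.68 on the log2 scale (adjusted p = 0.0384, 0.0112 and 0.0431). The other 9 calls were lost, among them Obp56d (adjusted p = 0.0746), Obp19a at 0.99 (adjusted p = 0.0869), Obp99a at -0.54 (adjusted p = 0.101) and Obp19c at -0.43 (adjusted p = 0.152). Of these 4, the estimates of Obp56d and Obp19a were larger than without the ratio and those of Obp99a and Obp19c smaller in size.

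Median centring, which shifted the median log2 fold change of all probe sets by -0.21, left 6 members higher and 5 lower, against 8.63% and 35.7% of all probe sets, and 19.5% of all calls were then higher and 80.5% lower, against 66.0% and 34.0% with the deposited scale. After quantile normalization 6 members rose and 2 fell, against 11.1% and 10.2% of all probe sets, and 52.0% of all calls were higher. Obp19a, Obp19d, Obp49a, Obp56d, Obp56g and Obp57a rose and Obp19c and Obp99a fell under both.

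**Figure D4:**
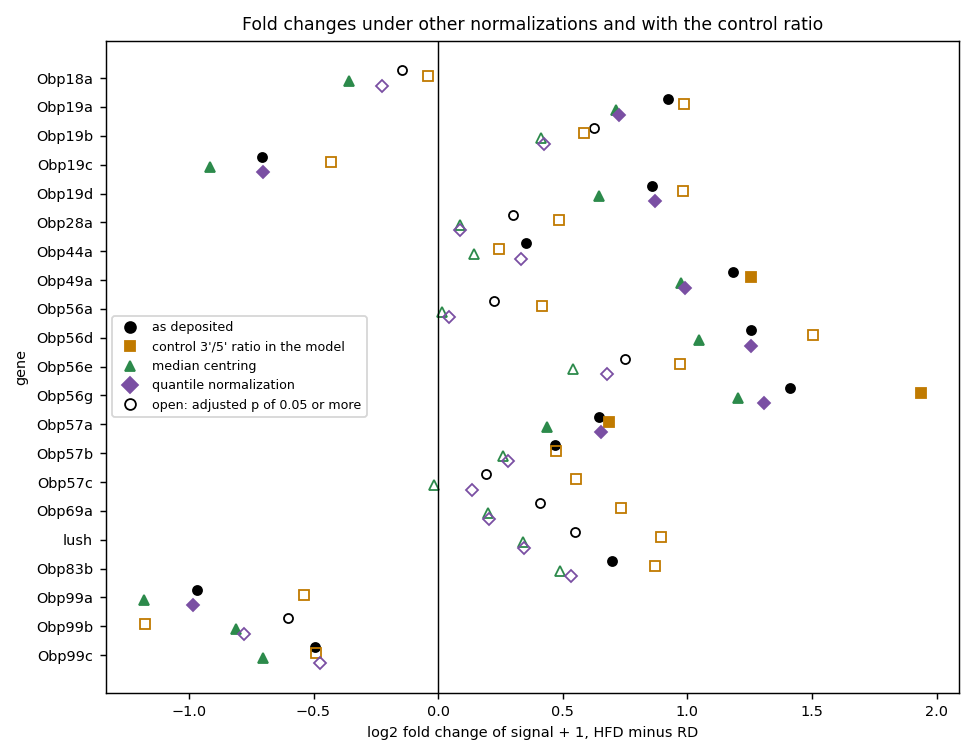
Log2 fold change, HFD minus RD, of the 21 members with the deposited scale, with the control ratio as a covariate, after median centring and after quantile normalization; filled symbols have an adjusted p under 0.05 in that fit. Obp49a, Obp56g and Obp57a are filled in all 4, and Obp57c crosses 0 after median centring, to -0.018.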

How the data were processed

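Whole-fly RNA was hybridised to 6 Affymetrix arrays, 3 HFD and 3 RD, with diets taken from the sample labels. The authors deposited an intensity per probe set on a linear scale, which the submitters' processing notes credit to MAS5 without a version. After 183 control probe sets were removed, log2 of signal plus 1 was taken, and the 11261 of 18769 probe sets above the 40th percentile of mean log2 value were kept. A limma model (3.58.1, R 4.3.3) with moderated variances that follow intensity gave two-sided p-values, adjusted by Benjamini-Hochberg over all 11261, and was tested on simulated data. Detection calls were not used here, and the number of arrays limits the precision. The array annotation gave 1 symbol for 13646 probe sets, several for 402 and none for 4721. All 51 probe sets of the members matched the RefSeq Release 6 table by gene ID, which supplied arms and neighbours. Coordinates are left out, as the build of the annotation is unknown, and sequences were not used here. Alternatives covered scaling, filters, pseudocounts, variance settings, the control 3'/5' ratio, the replicate number and leaving out each array. All members above a signal of 30 are named. From each other list, up to 4 genes past 0.05 with the greatest change, or the 2 with the smallest p, could be named, and Orco, Yp1 and 4 male markers at 0 were added after their values were seen. The members and lists were chosen with earlier results of these data known.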

Additional observations from a re-analysis of the deposited data

How the results depend on the processing

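Over the 17 other fits, 20 of the 21 tested members kept their sign in every fit that held them, and Obp57c reversed under median centring (-0.018). Obp49a, Obp56g and Obp57a passed in every fit that held them. The calls of Obp44a, Obp57b, Obp83b and Obp99c were lost in 11, 9, 10 and 10 fits. The count of all probe sets past the threshold, 2196, was 4995 with median centring, 1361 with a filter at the 60th percentile, 6129 with array weights and 266 with the control 3'/5' ratio, and 1008 to 2707 without 1 array, with 1310 and 1250 where HFD array 1 or 2 was left out and 1338 and 1008 where RD array 2 or 3 was. Members that rose numbered 4 of 11 tested at the 60th percentile (10.5% of all probe sets there) and 3 with the control ratio (1.89%). Without 1 array 5 to 9 rose, with 5 without HFD array 3 (9.56%) and 9 without RD array 3 (6.78%). The highest share, 16.6%, came without RD array 1, where 6 members rose. Members that fell numbered 5 with median centring (35.7%) and 0 with the control ratio (0.471%, unadjusted p under 0.05 for 1894 probe sets in that fit). Without 1 array 2 to 3 fell, and the lowest and highest shares, 2.18% and 7.46%, both came with 2. The member median, 0.47, was 0.20 without the filter, over 48 members, 0.26 with median centring, 0.25 with array weights, 0.31 with a pseudocount of 50 and 0.37 to 0.62 without 1 array. The labels do not say what a shared replicate number means. Over all tested probe sets the deviations of same-numbered arrays correlated at 0.0719, 0.102 and 0.0270, and not every array correlated best with its own number, so the numbers were not taken as pairs, although 11 of the 21 members had array 1 lowest and array 3 highest in both diets. With the replicate number as a block, 12 members rose and 3 fell (Obp19b, Obp56e and lush newly past, adjusted p = 0.0463, 0.00194 and 0.0457), of 2560 probe sets (14.5% of all higher, 8.25% lower). Dim signals limit what the 27 untested members can show.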
